A study of Mus musculus with 10 samples.

Results

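Interleukins are secreted signalling proteins by which leukocytes and vessel-wall cells address each other. Most act through a receptor built of a binding chain and a chain that carries the signal into the cell. The 75 genes described here are all those on the array whose single annotated symbol is Il followed by a digit, out of 17991 genes with a single symbol. They comprise 34 ligands, 34 receptor and accessory chains, 6 antagonists, binding proteins or decoy receptors, and 1 enzyme. A gene was read from its brightest probe, and all 75 had a value on each of the 10 arrays.

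The RNA came from the abdominal aorta of male ApoE-/- mice aged 14 weeks. All animals lacked apolipoprotein E, which raises plasma cholesterol and leads to atherosclerosis, and no wild-type aorta was analysed here. The aortas of 2 mice were pooled, and each of 5 pools (1, 6, 8, 11 and 12) gave an infrarenal segment, below the renal arteries, and a suprarenal segment, above them, so that 5 infrarenal and 5 suprarenal arrays were compared within pools. Whole segments were extracted, so fewer cells of a type and less RNA per cell cannot be told apart.

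Families share receptor chains. In the IL-1 family, IL-1 alpha, IL-1 beta, IL-18, IL-33 and the IL-36 proteins signal through paired receptors that recruit MyD88, and soluble antagonists and decoys hold them in check. IL-2, IL-4, IL-7, IL-9, IL-15 and IL-21 use the common gamma chain, and IL-3 and IL-5 the common beta chain. IL-6 and IL-11 use gp130, the product of Il6st. These receptors signal through JAK kinases and STAT factors. In atherosclerosis IL-1 beta and IL-6 are known as inflammatory mediators and IL-10 as a restraining one, and IL-33 is stored in the nuclei of stromal and endothelial cells as an alarm signal.

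Values are log2 of the deposited intensities, in which 0 is close to the median of an array. The array medians lay between 1.001 and 1.003 before the log, and pairs of arrays correlated at 0.962 or more over all probes. Apoe, the gene targeted in all animals, was not above the dimmest 30% of probes on any of the 10 arrays. Above that line were 7 of 7 smooth muscle, 8 of 8 endothelial, 10 of 10 macrophage and 6 of 7 T cell markers (Cd3e was not). The share of all genes above it was 78.3%. B cell markers (6 of 6) and skeletal muscle markers (8 of 9) were above it too, so these counts do not rank cell types. Neighbouring tissue varied: the skeletal muscle score, the mean log2 of 9 markers, ran from 1.64 to 4.84 on infrarenal and from 0.77 to 5.02 on suprarenal arrays, and the brown adipocyte score from 3.25 to 5.83 and from 3.25 to 5.76. Pool 12 stood apart, since over 24992 brighter probes its infrarenal minus suprarenal differences, set against those averaged over the remaining pools, gave r = -0.308, where pool 1 gave -0.097 and the others 0.128 to 0.339. Values without pool 12 are therefore given beside those of several genes that move with it. Pool 12 and these genes were picked from these same values. A change in their differences without pool 12 follows from that choice and is no separate evidence. Exchanged labels in pool 12 would turn the sign of its differences and cannot be checked from these values. Neighbouring tissue differed by pool as well. The skeletal muscle score differed by -2.28 in pool 1 and -2.80 in pool 12, and by 0.97 to 3.35 in the others. The brown adipocyte score differed by 0.26 and 1.28 in pools 1 and 12, and by -2.09 to -0.65 in the others. Its bearing on pool 12 was not tested.

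Most interleukin genes gave a reading above the dimmest 30% of probes, a line at -1.59 log2 units. The line is a rank among probes and not a limit of detection. The mean of 55 of the 75 genes lay above it, or 73.3%, against 78.3% of all genes. On every array 40 genes (53.3%) were above that array's own line, against 71.9% of all genes, 10 genes (13.3%) were above it on no array, against 14.8%, and 25 were above it on some. The 2 regions gave nearly equal counts, with 56 genes above the line by the infrarenal mean and 53 by the suprarenal mean. Single arrays had 50 to 57 of the genes above their line, the 50 on infrarenal array 12. A probe's brightness depends on the probe as well as on the transcript, so the readings place each gene against the line and do not rank transcripts by abundance.

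**Figure D1:**
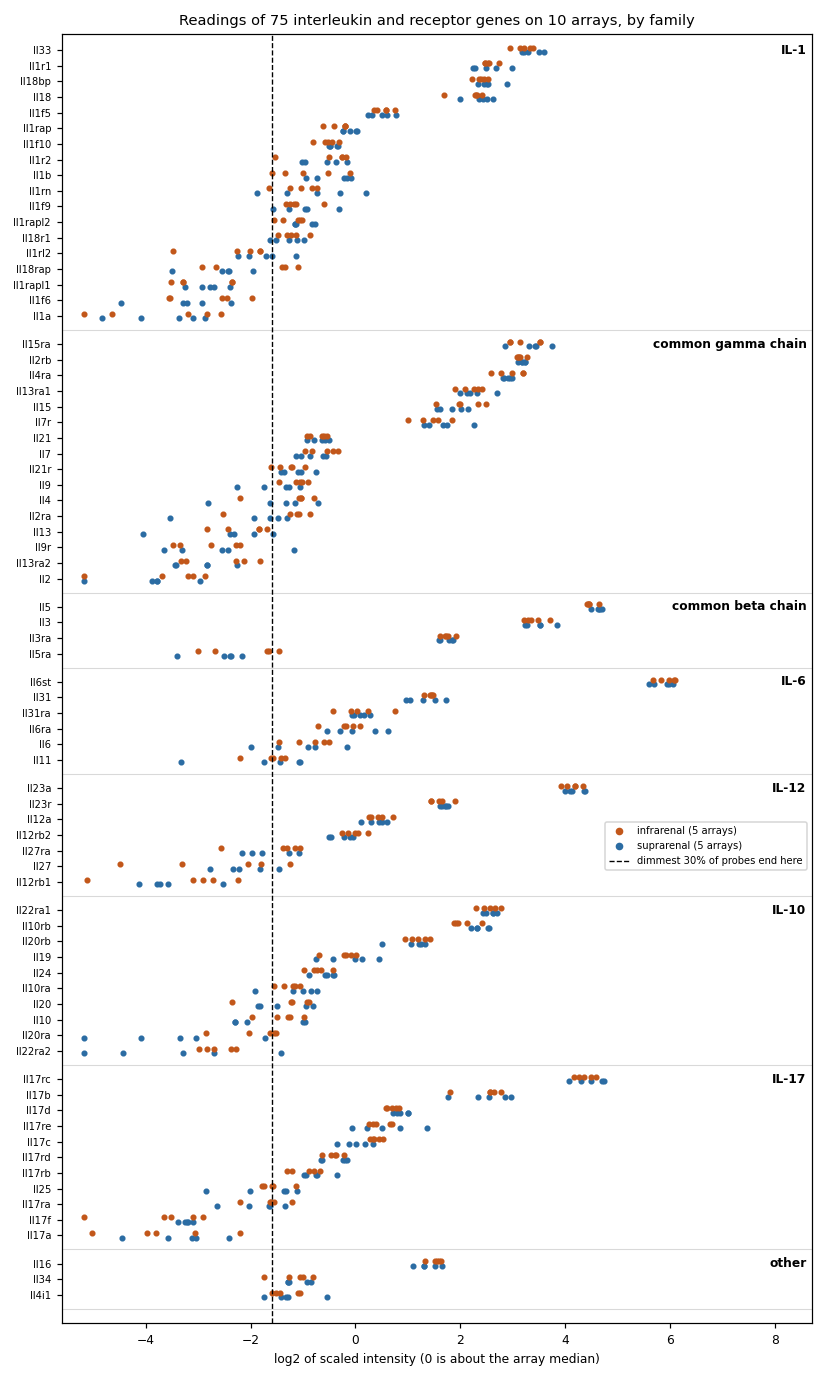
Log2 of the scaled intensity (horizontal axis) of the 75 genes, 1 row per gene, grouped by family, with 5 infrarenal (orange) and 5 suprarenal (blue) arrays as points and a dashed line at -1.59, the end of the dimmest 30% of probes by mean. The ranges of both regions overlap in every row, and 55 genes have a mean to the right of the line.

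Ligands and receptors were above the line equally often, 25 of 34 in each class, while 4 of the 6 antagonists, binding proteins and decoys were. By family, 13 of 18 genes were above it in the IL-1 family, 11 of 16 in the common gamma chain group and 7 of 11 in the IL-17 family. The counts were 3 of 4 for the common beta chain, 5 of 6 in the IL-6 family, 5 of 7 in the IL-12 family and 8 of 10 in the IL-10 family. The common gamma chain group here also counts Il13, Il13ra1 and Il13ra2, and the IL-6 family Il31 and Il31ra. These were grouped there without sharing the chain. The 10 genes above the line on no array were the ligand genes Il1a, Il1f6 (IL-36 alpha), Il2, Il17a and Il17f, the receptor chain genes Il5ra, Il12rb1, Il20ra and Il1rapl1, and Il13ra2, a decoy receptor for IL-13. IL-2 and IL-17A are products of activated T cells, and IL-1 alpha is made by many cell types.

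The letters just upstream of the start are described next, because they set several of the dim genes side by side. RefSeq promoter windows (GRCm38.p6, 250 bases before to 50 after the start, 1 window per gene) were used for 58 of the 75 genes. The letters TATAAA, the core of a TATA box, began 20 to 40 bases before the start on the coding strand in 6 of 14 genes not above the line, in 1 of 44 above it and in 2.53% of 14408 genes on the array. This interval was chosen after the matches were seen, and the matches are a description of letters, not of use. Anywhere in the window, on either strand, TATAAA stood in 11 of the 58 genes (19.0%), against 11.1% of genes on the array. The 80 bases before the start are shown for these 7 genes, because they share the motif, which is in capitals. Il6st is shown as a contrast in CpG content, not as typical of the bright genes, and its CG pairs are in capitals.

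Il1a (chr2:129309973-129310052, minus strand): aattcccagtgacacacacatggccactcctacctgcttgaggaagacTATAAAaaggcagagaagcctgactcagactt
Il2 (chr3:37125955-37126034, minus strand): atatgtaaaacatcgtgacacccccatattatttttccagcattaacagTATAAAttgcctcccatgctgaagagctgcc
Il13 (chr11:53634703-53634782, minus strand): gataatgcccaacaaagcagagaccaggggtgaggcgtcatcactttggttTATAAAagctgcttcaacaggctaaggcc
Il13ra2 (chrX:147429193-147429272, minus strand): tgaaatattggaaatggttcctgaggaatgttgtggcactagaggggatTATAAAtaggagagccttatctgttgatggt
Il17a (chr1:20730825-20730904, plus strand): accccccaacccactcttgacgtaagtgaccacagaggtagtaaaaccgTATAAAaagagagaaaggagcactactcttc
Il17f (chr1:20784271-20784350, minus strand): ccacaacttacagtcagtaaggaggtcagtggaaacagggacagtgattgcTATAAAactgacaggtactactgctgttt
Il1b (chr2:129371140-129371219, minus strand): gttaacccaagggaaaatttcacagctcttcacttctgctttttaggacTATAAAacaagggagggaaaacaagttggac
Il6st (chr13:112463990-112464069, plus strand): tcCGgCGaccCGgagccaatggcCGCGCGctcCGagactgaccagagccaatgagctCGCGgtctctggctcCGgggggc

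Of the 7 genes with the motif, Il1b alone was above the line. The ratio of observed to expected CpG over the whole window was 0.943 for Il6st and between 0.0952 and 0.35 for the 7 others. Its median was 0.264 over the 58 genes, 0.204 over 24 ligands and 0.354 over 28 receptor and accessory chains, beside 0.645 over all genes on the array. Over the 44 genes above the line the median was 0.274, and over the 14 not above it 0.243. The ratio was over 0.6 in 10 of the 44, in 0 of the 14 and in 54.0% of genes on the array. The windows held the NF-kB consensus on either strand in 3 of the 58 genes (5.17%, against 1.18% of genes on the array), which were Il6, Il12rb2 and Il21r. They held TTCNNNGAA, of the STAT type and the same on both strands, in 8 (13.8%, against 7.53%). Each motif was counted without regard to the others.

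Among the ligands of the IL-1 family, Il33 was read clearly and Il1b near the line. Il33 gave 3.13, 3.32, 3.39, 3.21 and 2.95 on infrarenal arrays 1, 6, 8, 11 and 12, and 3.50, 3.17, 3.60, 3.21 and 3.29 on the suprarenal arrays in the same order. The ranges overlapped widely. The difference, infrarenal minus suprarenal, was -0.15 ± 0.10 log2 units (SE, n = 5 pools; 95% interval -0.38 to 0.07), or a ratio of 0.899 with an interval from 0.768 to 1.05, and did not pass (limma, adjusted p = 0.672).

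Il1b, a dimmer gene, varied more from array to array, with an SD of 0.54 over the 10 arrays against 0.19 for Il33. Spread was wider among dim genes, with a median SD of 0.25 for the 55 above the line and 0.75 for the 20 not above it. Il1b gave -0.51, -0.10, -1.35, -1.01 and -1.59 on infrarenal arrays 1, 6, 8, 11 and 12 and -0.22, -0.94, -0.15, -0.08 and -0.72 on the suprarenal ones. It was lower in infrarenal aorta in 4 of 5 pools and higher in pool 6, where the difference was 0.84, and the ranges overlapped. The difference of -0.49 ± 0.28 (SE, n = 5 pools) did not pass (limma, adjusted p = 0.659), and without pool 6 it was -0.82 (adjusted p = 0.939), while without pool 8 it was -0.31. Macrophages are a main source of IL-1 beta. Of 10 macrophage markers 9 were lower in infrarenal aorta, against 60.4% of all genes, and 0 of 10 passed the threshold. At an unadjusted p under 0.05 by limma, 4 of the 10 were lower, against 5.89% of all genes, and 0 were higher. Their median difference was -0.25, beside -0.05 over all genes. Scores ran from 3.02 to 3.17 on infrarenal and 3.16 to 3.58 on suprarenal arrays. The score differed by -0.01, -0.36, -0.38, -0.005 and -0.55 in pools 1, 6, 8, 11 and 12. It was thus lower in pool 6 too, where Il1b was higher. The part of macrophages in the Il1b values was not tested.

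No other gene of the IL-1 family passed by region. Il18, whose product is activated like IL-1 beta by caspase-1, read 2.20 ± 0.29 (SD, n = 5) infrarenally and 2.38 ± 0.24 (SD, n = 5) suprarenally. The difference of -0.19 was -0.05 without pool 12 and -0.34 without pool 11. Il18bp, the secreted protein that neutralises IL-18, read 2.39 ± 0.12 and 2.54 ± 0.21 (SD, n = 5). The IL-18 receptor chains were dimmer, with Il18r1 above the line on 8 arrays and Il18rap on 2. Il1r1, the signalling IL-1 receptor, read 2.55 ± 0.11 and 2.54 ± 0.31, a difference of 0.02 with an interval from -0.28 to 0.31. The decoy receptor gene Il1r2 was lower in pool 12 by -1.37 and higher in the other 4 pools, by 0.05 to 0.76, for a difference of 0.06 on all pools (limma, adjusted p = 0.959) and 0.42 without pool 12 (adjusted p = 0.451). Il1rn, the receptor antagonist, was among the most variable genes above the line, ranging from -1.87 to 0.21. Of the family's 7 ligands, 6 had negative differences, against 60.4% of all genes, and none passed the threshold.

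In the common gamma chain group, Il15, Il15ra and Il4 moved with pool 12. Il15, a survival factor for natural killer and memory T cells, gave 2.49, 1.97, 1.98, 2.34 and 1.54 on infrarenal arrays 1, 6, 8, 11 and 12. On the suprarenal arrays it gave 2.02, 1.62, 1.56, 1.84 and 2.15. It was higher in infrarenal aorta by 0.35 to 0.50 in pools 1, 6, 8 and 11 and lower in pool 12, by -0.61. The difference was 0.23 ± 0.17 (SE, n = 5 pools; limma, adjusted p = 0.703), and without pool 12 it was 0.44 ± 0.09 (SE, n = 4 pools; adjusted p = 0.383). Its presenting receptor, Il15ra, moved the other way without pool 12, at -0.35 (adjusted p = 0.456), from -0.14 on all pools. Without pool 6 the Il15ra difference was 0.02.

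Il9, a T cell and mast cell growth factor, was higher in infrarenal aorta in 5 of 5 pools, as 2.92% of all genes were. The infrarenal arrays gave -1.07, -1.13, -1.47, -0.90 and -1.02 and the suprarenal arrays -1.33, -1.75, -2.25, -1.26 and -1.06, in the same order of pools. The ranges overlapped, and the values lie close to the line. The difference was 0.41 ± 0.17 (SE, n = 5 pools; 95% interval 0.02 to 0.81), and it did not pass (limma, adjusted p = 0.639). It was 0.23 with an offset added to all values in place of the floor. Of 8 mast cell markers 7 were higher in infrarenal aorta, against 39.6% of all genes, and 0 passed. At an unadjusted p under 0.05 by limma, 2 of the 8 were higher, against 2.17% of all genes, and 0 were lower. Scores ran from 1.98 to 2.76 on infrarenal and 1.94 to 2.64 on suprarenal arrays. The score differed by 0.25, 0.26, 0.62, 0.66 and -0.66 in pools 1, 6, 8, 11 and 12. It was thus lower in pool 12, where Il9 was not. The part of mast cells in the Il9 values was not tested.

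Of the 8 receptor chains of this group, 6 were above the line, while Il2ra lay just under it and Il9r, the IL-9 receptor, was above it on 1 array. Il4ra, shared by the IL-4 and IL-13 receptors, and Il13ra1, its partner, read 2.94 ± 0.27 and 2.20 ± 0.20 (SD, n = 5) in infrarenal aorta and 2.89 ± 0.07 and 2.26 ± 0.27 in suprarenal aorta. Their ligand genes were near or below the line, with Il4 above it on 7 arrays and Il13 on 1. Il4 was higher in infrarenal aorta by 0.30 to 1.72 in 4 pools and lower in pool 12. Its difference of 0.30 became 0.75 ± 0.27 (SE, n = 4 pools) without pool 12, and did not pass (limma, adjusted p = 0.828 and then 0.419). Without pool 11, where Il4 differed by 1.72, the difference was -0.06. Il2rb, the signalling chain for IL-2 and IL-15, had the smallest spread of the 55 genes above the line, with all 10 arrays between 3.09 and 3.27 and a 95% interval of the regional difference from -0.21 to 0.14. Il7r, the IL-7 receptor, read 1.43 ± 0.31 and 1.67 ± 0.37, and its brighter and dimmer probes differed by -0.24 and -0.20.

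Both ligand genes of the common beta chain were read well above the line. Il5, the eosinophil growth factor, gave 4.64, 4.46, 4.42, 4.43 and 4.46 on infrarenal arrays and 4.64, 4.63, 4.70, 4.66 and 4.49 on suprarenal arrays 1, 6, 8, 11 and 12. It was lower in infrarenal aorta in 5 of 5 pools, as 6.23% of all genes were, with differences from -0.28 to -0.01, and the ranges overlapped. The difference of -0.14 ± 0.08 (SE, n = 5 pools) did not pass (limma, adjusted p = 0.649). Its receptor gene Il5ra was above the line on 0 arrays. Il3, a mast cell and basophil growth factor, read 3.41 ± 0.19 and 3.47 ± 0.24 (SD, n = 5), and its receptor gene Il3ra 1.75 ± 0.11 and 1.74 ± 0.13. T cells are a known source of IL-3 and IL-5. The T cell score, from -0.20 to 0.30 on infrarenal and -0.08 to 0.38 on suprarenal arrays, was not tested against these readings.

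In the IL-6 family the brightest probe of Il6st, the shared signal chain, had an SD of 0.18 over the 10 arrays. The much dimmer Il6 probe had 0.54. The 2 dimmer Il6st probes had SDs of 0.45 and 0.65, so the spread depends on the probe. Il6st gave 5.82, 5.67, 6.06, 6.09 and 5.97 on infrarenal and 5.93, 5.59, 5.70, 6.05 and 5.98 on suprarenal arrays, with a difference of 0.07 (95% interval -0.13 to 0.27; limma, adjusted p = 0.805). Its 2 dimmer probes averaged 1.03 and -1.61 and differed by -0.31 and 0.81, so the sign of the difference depends on the probe. The dimmest was higher in 5 of 5 pools (limma, unadjusted p = 0.017, adjusted p = 0.639), and none of the 3 passed. Il6 gave -0.77, -0.51, -1.46, -0.59 and -1.07 infrarenally and -1.49, -1.98, -0.77, -0.16 and -0.90 suprarenally. It was higher in infrarenal aorta in pools 1 and 6, by 0.72 and 1.48, and lower in the other 3. The difference of 0.18 ± 0.31 (SE, n = 5 pools; limma, adjusted p = 0.876) turned to -0.14 without pool 6. Il6ra, the binding chain, read -0.22 ± 0.31 and 0.02 ± 0.48 (SD, n = 5). Its difference of -0.24 was -0.019 without pool 12 and -0.39 without pool 1. Il11, a ligand that also uses gp130, was just under the line, at -1.63 ± 0.33 and -1.73 ± 0.94.

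**Figure D2:**
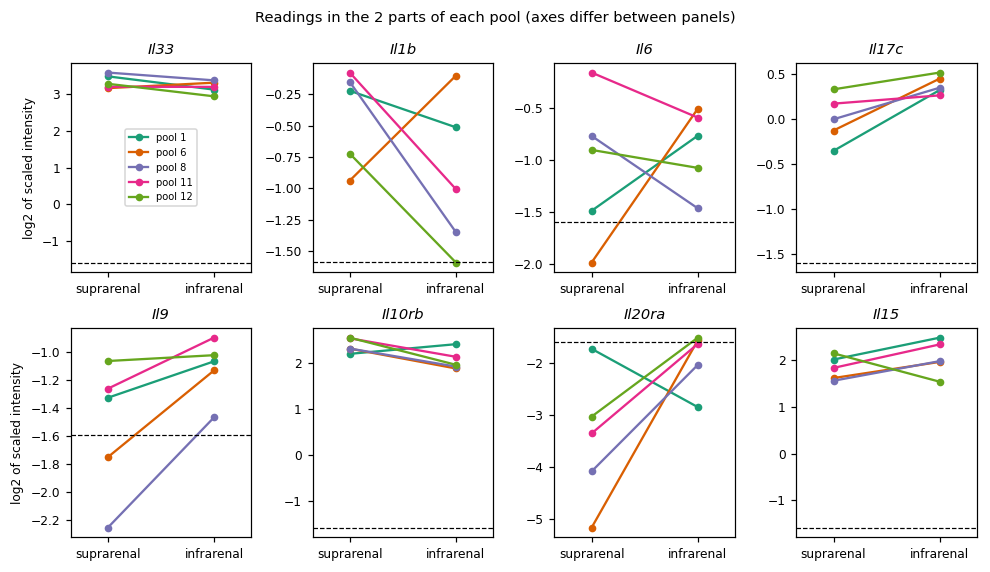
Log2 of the scaled intensity (vertical axis, scaled per panel) of 8 genes in the suprarenal and infrarenal part of each pool, joined by a line and coloured by pool; the dashed line is the end of the dimmest 30% of probes, at -1.59. Il17c and Il9 rise from left to right in all 5 pools, Il10rb falls in all but pool 1, Il20ra rises in all but pool 1, and Il15 rises in all but pool 12.

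In the IL-12 family, Il23a, the specific subunit of IL-23, read 4.13 ± 0.16 and 4.19 ± 0.17 (SD, n = 5), and Il12a, the small subunit of IL-12, 0.44 ± 0.18 and 0.39 ± 0.19. The receptor chains split. Il23r was above the line on all 10 arrays and Il12rb2 was too, while Il12rb1, which both receptors need, was above it on none. In the IL-10 family, Il10 itself lay on the line, above it on 3 infrarenal and 2 suprarenal arrays. Its difference was 0.33 on all pools and 0.66 ± 0.24 (SE, n = 4 pools; limma, adjusted p = 0.419) without pool 12, in which it was -1.01. Without pool 11 the Il10 difference was 0.15. Il10ra, the specific receptor chain, was above the line on 8 arrays.

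In the IL-10 family 2 receptor genes had an unadjusted p under 0.05 and are named after their values were seen. Il10rb, the chain shared by the receptors for IL-10, IL-22 and the lambda interferons, gave 2.41, 1.88, 1.92, 2.13 and 1.96 on infrarenal and 2.20, 2.31, 2.31, 2.53 and 2.55 on suprarenal arrays. It was lower in infrarenal aorta in 4 of 5 pools, and infrarenal array 1 lay among the suprarenal values. The ratio was 0.80, with a 95% interval from 0.657 to 0.973, and the difference of -0.32 ± 0.12 (SE, n = 5 pools) did not pass (limma, adjusted p = 0.639). Il20ra, a chain of the IL-20 receptor, gave -2.85, -1.56, -2.03, -1.63 and -1.51 on infrarenal and -1.72, -5.17, -4.09, -3.35 and -3.03 on suprarenal arrays, the -5.17 being the floor set for low values. It was dim on all 10 arrays. The difference was 1.56 ± 0.60 (SE, n = 5 pools; limma, adjusted p = 0.639), with pool 1 at -1.12 and the others at 1.52 to 3.61, and it was 1.04 without pool 6 and 2.23 without pool 1. With an offset added to all values in place of the floor it was 0.54.

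The IL-17 family was read mainly through its receptors and its less studied ligands. Il17rc read 4.37 ± 0.17 and 4.46 ± 0.28 (SD, n = 5), while Il17ra, its partner in the IL-17A receptor, lay just under the line and above it on 2 arrays. Il17a and Il17f, the T helper 17 cytokines, were above the line on none. Il17b read 2.47 ± 0.38 and 2.49 ± 0.48, and Il17d 0.70 ± 0.11 and 0.87 ± 0.13. The dimmer probe of Il17re and of Il13ra1 was below the line where the brighter was above it, as were both dimmer probes of Il1rap, and each of these had the other sign. The dimmer Il17re probe, above the line on 0 arrays, differed by 0.88 and was higher in 5 of 5 pools (limma, unadjusted p = 0.041, adjusted p = 0.639).

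Il17c, an epithelial cytokine of this family, had the smallest p of the 75 genes. It gave 0.33, 0.45, 0.35, 0.27 and 0.52 on infrarenal arrays 1, 6, 8, 11 and 12 and -0.35, -0.12, 0.00, 0.18 and 0.33 on the suprarenal ones. The infrarenal reading was higher in each pool, but the suprarenal value of pool 12 reached into the infrarenal range. The ratio, infrarenal over suprarenal, was 1.30 with a 95% interval from 1.06 to 1.58, and the difference of 0.38 ± 0.12 (SE, n = 5 pools) did not pass (limma, adjusted p = 0.639). Leaving out 1 pool at a time gave 0.30 to 0.45. The gene of its receptor chain, Il17re, differed by -0.11 ± 0.23 (SE, n = 5 pools).

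Across the 75 genes no regional difference passed. Of 36061 probes tested with limma, 0% were called higher and 0% lower in infrarenal aorta at an adjusted p of 0.05, and 0 of the 75 genes were called; the smallest adjusted p among them was 0.639. At an unadjusted p under 0.05, 3 of the 75 were higher (Il17c, Il9 and Il20ra), against 2.17% of all genes, and 1 was lower (Il10rb), against 5.89%. The 5 infrarenal readings lay all above or all below the 5 suprarenal ones for 0 of the 75, against 0.372% and 0.884% of all genes. Differences were positive for 35 genes (46.7%), against 39.6% of all genes, and negative for 40, against 60.4%. After quantile normalization 40 were positive, against 50.3% of all genes. As deposited, differences were positive for 22 of the 55 above the line (40%), against 33.5%. Their median was -0.03 over the 75 genes, beside -0.05 over all genes, and -0.05 over the 55, beside -0.07. The median half-width of the 95% interval was 0.35 log2 units for the 55 genes and 1.03 for the 20 below the line, before any adjustment.

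**Figure D3:**
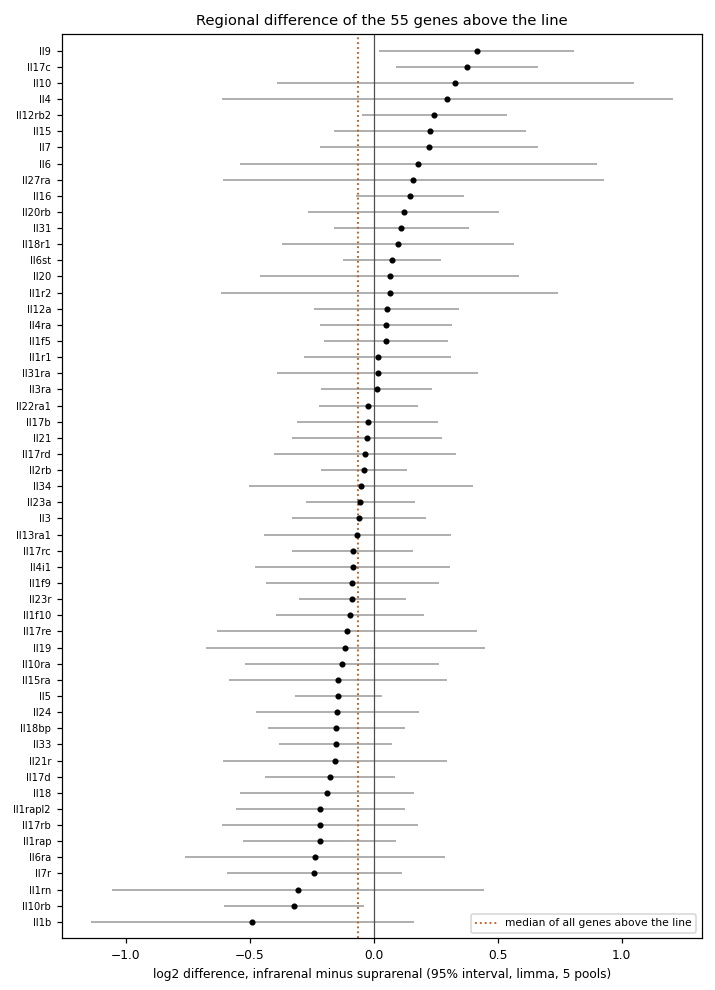
Log2 difference, infrarenal minus suprarenal (horizontal axis), of the 55 genes above the line, as points with 95% intervals from limma over 5 pools, and the median of all genes above the line as a dotted line at -0.07. The intervals of Il9, Il17c and Il10rb exclude 0 before adjustment, and those of the other 52 genes include it.

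Only 3 genes crossed the line between regions, Il10, Il27ra and Il2ra, or 4% against 2.12% of all genes. By the infrarenal mean all 3 were above it and by the suprarenal mean below, and all 3 lie close to it. The genes just inside it were Il4, Il10 and Il27ra, with means of -1.38, -1.56 and -1.57, and those just outside were Il25, Il2ra and Il11, with -1.65, -1.67 and -1.68. Il2ra, the alpha chain of the high-affinity IL-2 receptor, differed by 0.61 ± 0.45 (SE, n = 5 pools, adjusted p = 0.703 by limma), with 2.68 in pool 6 and -0.90 in pool 8. Without pool 6 the Il2ra difference was 0.09.

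The mean reading of the 55 genes was 0.65 on infrarenal array 12, the lowest of the 10 arrays, and 0.86 on suprarenal arrays 8 and 12, with 0.67 to 0.82 on the other 7. Infrarenal array 12 held the lowest reading for 11 of the 55 genes, and suprarenal arrays 6 and 12 the highest for 11 each. Suprarenal array 1 held the lowest for 9, and suprarenal array 8 the highest for 9. Over all genes above the line, the mean was 2.01 to 2.10 on infrarenal arrays, with 2.04 on array 12. It was 2.11 to 2.16 on suprarenal arrays. Without pool 12, 7 of the 75 genes had an unadjusted p under 0.05, in place of 4, and 0 passed. That is 9.33%, against 12.7% of all genes without pool 12, where all pools gave 5.33% against 8.05%. Of the 7, Il15, Il17c, Il4, Il10, Il9 and Il1r2 were higher and Il15ra lower. Only Il17c and Il9 were among the 4 on all pools. With another pool left out there were 2 in each case, or 2.67%, against 3.99% to 9.43% of all genes.

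**Figure D4:**
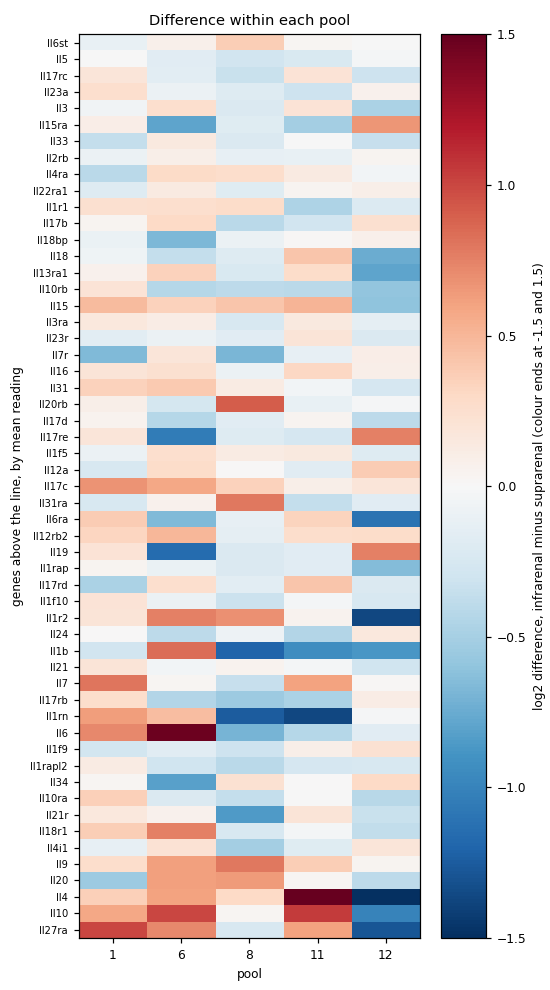
Log2 difference, infrarenal minus suprarenal, within each pool (columns) for the 55 genes above the line (rows, ordered by mean reading); red is higher in infrarenal aorta, blue lower, and colours end at -1.5 and 1.5. Il17c and Il9 are red in all 5 columns, and Il4, Il10, Il27ra and Il1r2 are dark blue in pool 12 only.

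Genes that work with the interleukins but carry other names showed no regional call. Of 15 cytokine and receptor genes of these families measured, 0 passed in either direction, with 6 differences positive and 9 negative; Tslp, an epithelial cytokine that signals with Il7r, differed by -0.38 ± 0.13 (SE, n = 5 pools) and was lower in 5 of 5 pools, and Csf2rb2, a beta chain, by 0.26 ± 0.12. Of 10 JAK and STAT genes 0 passed; Stat3, the main factor downstream of IL-6, differed by -0.14 ± 0.07 and Jak3, the kinase bound to the common gamma chain, by -0.44 ± 0.24. Of 13 feedback inhibitors 0 passed, with 10 negative, against 60.4% of all genes. Pias4, an inhibitor of STAT factors, differed by -0.21 ± 0.09 and Socs2 by -0.19 ± 0.10. Of 16 genes of IL-1 and IL-17 signalling and the inflammasome 0 passed; Tollip, a regulator of IL-1 receptor signalling, differed by -0.34 ± 0.14 and Map3k7, the kinase TAK1, by -0.31 ± 0.13. The adjusted p of these 8 genes lay between 0.639 and 0.65 by limma.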

How the data were processed

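The deposited values are linear intensities of 36227 probes per array, as the authors deposited them, with array medians near 1 in the values themselves. Per the labels' protocols, 0.34 to 0.54 µg of RNA was amplified into biotin-labelled cRNA and stained with Cy5-streptavidin. For the scanner, background correction, scaling method and genome build, the sources used here name nothing. Values under 0.0278, percentile 1 of the positive ones, were raised to it (-5.17 as log2), and log2 was taken, which widens the spread of dim probes. A probe needed 3 values per region, which left 36061. Gene names came from the platform annotation, matched by Entrez identifier to RefSeq (21487 of 21615 single-symbol probes).

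The 2 regions were tested two-sided in R 4.3.3 by lmFit and eBayes of limma 3.58.1, with a variance trend and the pool as a block, since the series' design divides the aortas of each group of mice and takes ratios within it. The number in the titles joins the segments. P-values had Benjamini-Hochberg adjustment over all probes. As a check of the pairing, r between the 2 arrays of a pool, after subtracting each region's mean, was 0.135 (pool 1), 0.029 (pool 6), -0.019 (pool 8), -0.197 (pool 11) and -0.200 (pool 12), so the values themselves show no common pairing. The fits were tested on simulated data.

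Named genes were Il1b, Il6 and Il33, the 12 of highest reading, up to 8 a side with 1 sign in all pools, the 3 on each side of the line, genes whose probes disagree, and 2 of smallest p per pathway list. Other genes were named after their values were seen. The members and lists were chosen with earlier results of these data known. Promoter windows from chromosome 18 were not used. The alternatives were no replicate block, quantile normalization, an offset of 0.2701 in place of the floor and the dimmest 30% left out. Further ones were no variance trend, RNA input as a covariate, probes averaged, other percentiles for the line and each pool left out.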

Additional observations from a re-analysis of the deposited data

Results flagged for a closer look

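Among 52 sets of 5 arrays from 1 region, for the 26 genes named by rule, 8 had a highest or lowest array standing well away from the 4 remaining ones. The nominal rate, about 1 set in 20, holds for independent and normally distributed values. Many of these genes were named by their values, and the same arrays recur. The share over all genes was not counted, so 8 of 52 cannot be read as an excess. Infrarenal array 12 was low for Il27ra, at -2.56 against -1.38 to -1.05 on the others, and for Il4, at -2.20 against -1.08 to -0.79. Infrarenal array 1 was low for Il17b, at 1.80 against 2.56 to 2.78, and high for Il5, at 4.64 against 4.42 to 4.46. Infrarenal array 6 was high for Il1r1, at 2.74 against 2.47 to 2.55, and for Il2rb, at 3.27 against 3.09 to 3.14. Il2ra was low on infrarenal array 8, at -2.52 against -1.24 to -0.86, and on suprarenal array 6, at -3.54 against -1.93 to -1.31.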

How the results depend on the processing

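No interleukin gene passed the limma threshold under any alternative run, and over all probes 0 passed except 1 after quantile normalization. Both counts were 0 with each pool left out (0 to 0). With no replicate block, 0 genes and 0 probes passed, and 3 of the 75 (4%) had an unadjusted p under 0.05, against 7.81% of all genes. Positive differences numbered 22 of 55 without the dimmest 30% of probes, 32 to 36 of 75 without 1 pool, 40 after quantile normalization and 38 with probes averaged, where 35 were positive otherwise. Above the line were 54 to 56 genes without 1 pool, 64 and 40 with the line at the dimmest 20% and 40%, and 50 by 8 of 10 arrays.

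Differences that turned sign after quantile normalization, which left the median difference of all probes at 0.0082, were Il11 (-0.041), Il13ra1 (0.011), Il17b (0.061), Il17rc (0.039), Il22ra1 (0.058), Il23a (0.051), Il2rb (0.055) and Il3 (0.038). With probes averaged Il13ra1 (0.13), Il17re (0.39) and Il1rap (0.036) turned, since their dimmer probes differ in sign. With 1 pool left out, signs turned for Il11 (-0.35 to 0.41), Il13ra1 (-0.17 to 0.11), Il15ra (-0.35 to 0.018), Il17b (-0.10 to 0.071), Il17re (-0.33 to 0.12), Il1r1 (-0.047 to 0.14), Il22ra1 (-0.062 to 0.021), Il23a (-0.13 to 0.0098), Il25 (-0.11 to 0.37), Il27ra (-0.050 to 0.52), Il3 (-0.14 to 0.044), Il4 (-0.059 to 0.75), Il4ra (-0.010 to 0.16), Il6 (-0.14 to 0.40) and Il6st (-0.0014 to 0.12). The cause was not tested. Low signal over background limits the 20 genes below the line.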
